A study of Rattus norvegicus with 16 samples.

Results

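Gene expression in hippocampus was compared with that in frontal cortex of young rats, on the 4 hippocampus and 4 frontal cortex arrays of young animals among the 16 arrays of the series. All rats were males of an inbred line, LOU/C/Jall. The arrays were chosen by their labels, and no measured value entered the choice. The labels give the young rats an age of 5 months and the design text gives 3, and 26 months is given for the old rats. Region differences of the old rats, from 4 hippocampus and 4 frontal cortex arrays, are given only where stated. The old arrays also entered the choice of spots, the intensity filter and the estimate of each gene's spread. Per the labels, the animals were anaesthetised with isoflurane in N2O and O2 and decapitated, and each region was frozen as a pair of hemi-structures before total RNA was taken. RNA was labelled with Cy3 and hybridised to single-colour Agilent rat arrays. The labels mark the young arrays with the letter codes AA, AB, Y and Z in each region. They do not say that a code is 1 animal or that the arrays of a group come from separate animals. The p-values thus measure the spread between arrays of a group, pooled over all 16 arrays, and that spread may be technical.

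The hippocampus is an allocortical structure in which granule cells of the dentate gyrus project to CA3 pyramidal cells, which project in turn to CA1, and it serves the formation of spatial and episodic memory. The frontal neocortex is built of layers of pyramidal cells that project within the cortex, to the striatum and thalamus or further down, and it serves planning and action. The principal cells of both regions are glutamatergic neurons of the dorsal telencephalon, and they differ in transcription factors, adhesion molecules, peptides, receptors and channels that mark subfields and layers.

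Of 16974 genes with a listed symbol, 10056 were brighter than the intensity minimum of 6.49 log2 in at least 1 group and were tested. On this scale the negative control spots averaged 4.99. Arrays of the same region correlated at 0.98 to 0.99 across genes in both regions, and arrays of different regions at 0.96 to 0.98. The number of arrays limits the precision, and the median residual SD of a gene was 0.165 log2. Differences below are hippocampus minus frontal cortex on the log2 signal scale, so that 1 is a 2-fold difference and a positive value is higher in hippocampus. Values of single arrays are given in the order AA, AB, Y, Z. A gene is called when its limma p-value, adjusted by Benjamini-Hochberg over the 10056 genes, is under 0.05.

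Some arrays stood apart in markers of neighbouring tissue. Each gene of a list was centred on its mean of the 16 arrays and the list was averaged per array. The 15 tested markers of the choroid plexus, the epithelium that makes cerebrospinal fluid, averaged -0.82, 2.94, 2.52 and -0.74 in hippocampus and -1.10, -1.19, -0.92 and -0.78 in frontal cortex, so hippocampus arrays AB and Y were high and the other 6 young arrays were low. The 15 tested markers of striatal medium spiny neurons, which lie beneath the frontal cortex, averaged 0.82, 0.91, -0.36 and -0.37 in frontal cortex and -0.47, -0.36, -0.42 and -0.34 in hippocampus, so frontal cortex arrays AA and AB were high. The 20 meningeal and mural markers were highest in frontal cortex arrays Z (1.05) and Y (0.82) and in hippocampus array Y (0.91). The 8 tested thalamus and septum markers averaged -0.04, 0.12, 0.94 and 0.24 in hippocampus, with array Y the highest. In frontal cortex they averaged -0.02, -0.40, -0.22 and -0.18. The 22 myelin markers were lowest in frontal cortex arrays Y (-0.68) and Z (-0.74). Without the 2 cortex arrays high in striatal markers 987 genes were called, and without the 2 hippocampus arrays high in choroid plexus markers 1032 were called, both alternatives chosen after seeing the data. Of all 1392 genes called in the main fit, 923 and 941 were called in these smaller fits. Of the 186 genes called and named by rule, which were picked largely for size or small p-values, 156 and 155 were. Among those described here, Ttr, Folr1, Otx2, Tac1, Rgs12, Sulf2, Cplx3, Rasd2, Tubb3, Gria2, Grm6, Gabrb1, Gabra2, Sstr3, Galr2, Cacna1h, Efnb3, Spp1, Wfs1 and Frzb were not called without the 2 cortex arrays, and Ttr, Folr1, Otx2, Mpped1, Rgs12, Etv5, Pdyn, Rasd2, Foxj1, Car2, Mag, Tf, Grm6, Gabrb1, Adra2a, Sstr3, Galr2, Spp1 and Wfs1 were not called without the 2 hippocampus arrays.

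**Figure D1:**
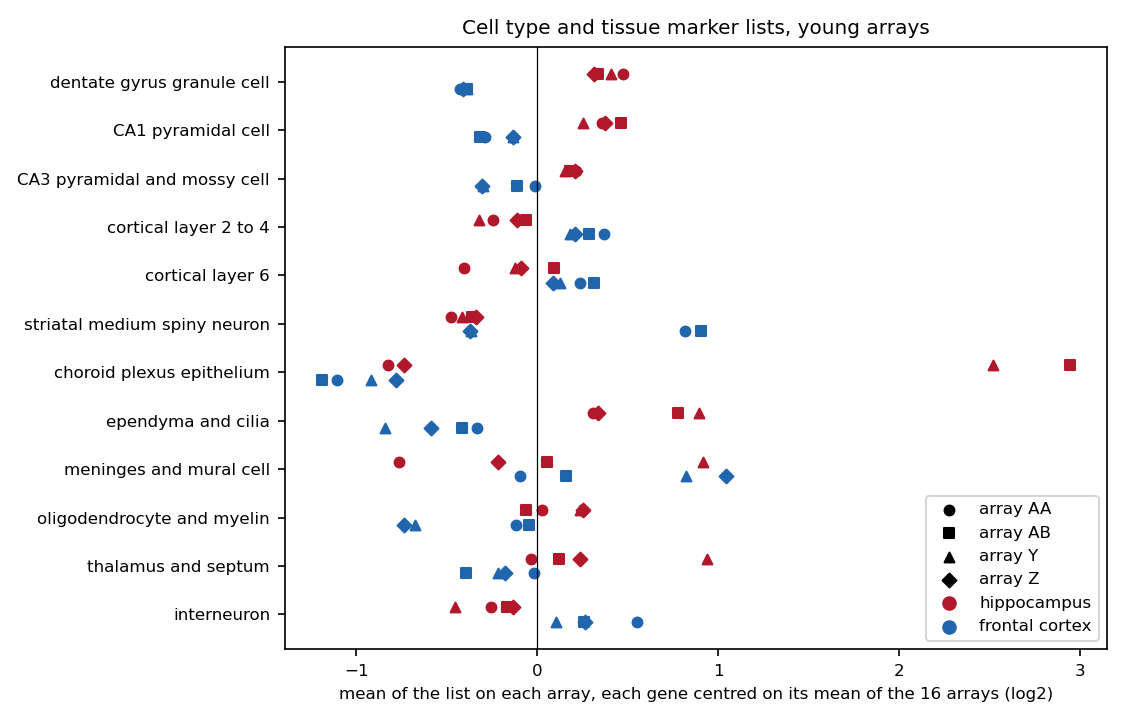
Mean of 12 marker lists on each young array, in log2 units after centring each gene on its mean of the 16 arrays. Red symbols are hippocampus, blue symbols frontal cortex, and the symbol shape gives the array code. Choroid plexus markers are high in hippocampus arrays AB and Y, and striatal markers in frontal cortex arrays AA and AB. The dentate, CA1 and CA3 lists have every hippocampus array above every cortex array.

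In young rats 1392 of 10056 genes were called, which is 13.8%. Of these, 645 (6.41%) were higher and 747 (7.43%) were lower in hippocampus, and 2523 genes had an unadjusted p under 0.05. The median difference of all genes tested was -0.00. The shares of 6.41% higher and 7.43% lower are the background for each count of list members below. Most called differences were modest, with medians of 0.60 among the higher and -0.61 among the lower genes. Differences over 1 log2 were called for 145 genes in favour of hippocampus and 148 in favour of frontal cortex. Over 3 log2, or 8-fold, there were 8 and 3. The 4 hippocampus and 4 frontal cortex arrays did not overlap for 2434 genes (24.2%), 1154 of them higher in hippocampus (11.5%) and 1280 lower (12.7%). For 90 of the genes called higher the frontal cortex mean lay under the intensity minimum, and for 112 of the genes called lower the hippocampus mean did. For those the log2 difference is between a signal and a near-background value, and a fold below is given as "at least", with every dim array set to the intensity minimum. In bulk tissue, fewer cells of a type and less RNA per cell cannot be told apart.

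**Figure D2:**
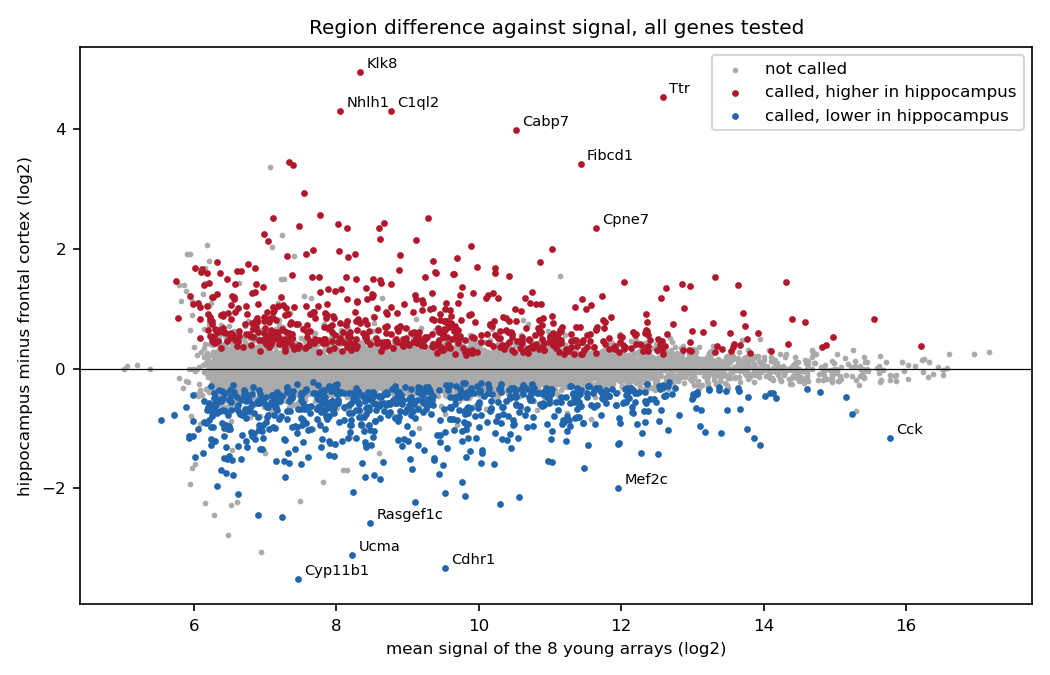
Hippocampus minus frontal cortex difference (log2, vertical axis) against the mean signal of the 8 young arrays (log2, horizontal axis) for the 10056 genes tested. Red points are the 645 genes called higher and blue points the 747 called lower in hippocampus, and grey points were not called. Called differences lie on both sides of 0 over most of the signal range.

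The largest differences in each direction were taken only from called genes whose arrays did not overlap and whose kept spots had the same sign. For these genes both features were set by the choice and are no separate support. Among the largest differences in favour of hippocampus was that of Klk8, the secreted serine protease neuropsin. Klk8 read 10.97, 10.62, 10.71 and 10.95 in hippocampus and 5.84, 5.76, 5.88 and 5.98 in frontal cortex. All 4 cortex arrays were close to background and far below every hippocampus array. The difference was 4.95 (SE 0.14, adjusted p = 7.00e-13), at least 20.1-fold. Nhlh1, a neuronal basic helix-loop-helix factor, read 10.50, 9.75, 10.28 and 10.31 in hippocampus and 5.64, 6.12, 5.96 and 5.91 in frontal cortex. The cortex arrays were again under the intensity minimum, and the difference of 4.30 (SE 0.18, adjusted p = 1.06e-10) corresponds to at least 13.2-fold. C1ql2, a secreted synaptic organiser of the mossy fibres that granule cells send to CA3, read 11.24, 10.54, 11.09 and 10.81 in hippocampus and 7.15, 6.40, 6.23 and 6.71 in frontal cortex. Hippocampus was higher by 4.30 (SE 0.24, adjusted p = 7.20e-09), or 19.7-fold, with no overlap.

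Cabp7, a neuronal calcium-binding protein, was bright in both regions, at 12.66, 12.18, 12.71 and 12.48 in hippocampus and 8.59, 8.59, 8.34 and 8.60 in frontal cortex, a difference of 3.98 (SE 0.14, adjusted p = 9.58e-12). Its 4 kept spots ranged from 2.52 to 3.98. Fibcd1, a transmembrane receptor for acetylated glycans and a CA1 marker, read 13.42, 13.05, 12.91 and 13.17 in hippocampus and 9.87, 9.47, 9.84 and 9.73 in frontal cortex. Every hippocampus array exceeded every cortex array by over 2 log2, and the difference was 3.41 (SE 0.12, adjusted p = 9.58e-12), although its 4 kept spots ranged from 1.26 to 3.43. Htr5b, a serotonin receptor of rodents, read 9.21, 9.20, 8.90 and 8.92 in hippocampus and 5.95, 5.54, 5.57 and 5.41 in frontal cortex. The cortex arrays were under the intensity minimum and the difference of 3.44 (SE 0.13, adjusted p = 2.37e-11) was at least 5.94-fold.

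Further large differences in favour of hippocampus were in Nts, which encodes the peptide neurotensin (2.92 (SE 0.33, adjusted p = 9.10e-06, at least 4.88-fold)), in Pkp2, a plakophilin of cell junctions (2.52 (SE 0.16, adjusted p = 2.47e-08)), in Vav3, a guanine nucleotide exchange factor (2.42 (SE 0.23, adjusted p = 2.06e-06)), and in Lrrc10b (2.38 (SE 0.35, adjusted p = 0.000149, at least 3.89-fold)), Cdhr4 (2.56 (SE 0.38, adjusted p = 0.000136)) and Calml4 (2.43 (SE 0.35, adjusted p = 0.000102)). For Nts the frontal cortex arrays spread from 5.30 to 7.43, with AA the highest, while hippocampus held between 8.81 and 9.28. The other 3 of the 15 largest, Ttr, Folr1 and Otx2, belong to the choroid plexus list and are given there.

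Among the largest differences in favour of frontal cortex was that of Cyp11b1, the 11-beta-hydroxylase that makes corticosterone in the adrenal gland, with signals of 5.42, 5.93, 5.43 and 6.04 in hippocampus and 8.90, 9.21, 9.45 and 9.30 in frontal cortex. Hippocampus arrays were all under the intensity minimum, and the difference was -3.51 (SE 0.16, adjusted p = 5.21e-10), at least 6.63-fold. Cyp11b3, a close paralog, read 5.34, 5.44, 5.40 and 5.24 in hippocampus and 7.08, 7.21, 7.55 and 7.39 in frontal cortex, a difference of -1.95 (SE 0.12, adjusted p = 2.41e-08) and at least 1.77-fold. The 2 genes are near-identical copies, so probes may not tell them apart.

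Cdhr1, a cadherin of photoreceptors and of the olfactory bulb, read 7.48, 7.78, 7.86 and 8.37 in hippocampus and 12.86, 10.84, 10.44 and 10.64 in frontal cortex. No arrays overlapped, as the choice of these genes required, but cortex array AA was over 2 log2 above the other 3. The difference of -3.32 (SE 0.38, adjusted p = 1.26e-05) became -2.67 (adjusted p = 4.93e-06) without cortex arrays AA and AB. Ucma, known as a cartilage matrix protein, read 6.06, 7.13, 6.14 and 7.35 in hippocampus and 9.48, 9.78, 10.08 and 9.77 in frontal cortex, a difference of -3.11 (SE 0.31, adjusted p = 2.63e-06). Rasgef1c, an exchange factor for Ras-family GTPases, differed by -2.58 (SE 0.17, adjusted p = 2.47e-08) and read 6.81, 7.51, 7.04 and 7.38 in hippocampus and 9.54, 9.82, 9.72 and 9.99 in frontal cortex. For both genes the 4 cortex arrays were within about 1 log2 of each other and above all hippocampus arrays.

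Cbln2, a cerebellin that joins presynaptic neurexin to postsynaptic receptors, read 9.19, 9.65, 9.59 and 9.56 in hippocampus and 11.59, 11.63, 11.74 and 11.61 in frontal cortex. Its cortex arrays were almost equal and the difference was -2.14 (SE 0.13, adjusted p = 1.98e-08). Its 10 kept spots had the same sign, which the choice of these genes required. Hs3st2, a heparan sulfate 3-O-sulfotransferase, read 8.42, 9.13, 8.63 and 8.78 in hippocampus and 10.82, 10.94, 10.84 and 10.90 in frontal cortex, a difference of -2.13 (SE 0.16, adjusted p = 1.81e-07). Mef2c, a MADS-box factor of upper-layer neurons, read 10.41, 11.65, 10.75 and 11.02 in hippocampus and 12.88, 12.98, 13.05 and 12.91 in frontal cortex. Hippocampus array AB was its highest hippocampus array and still over 1 log2 below the lowest cortex array, and the difference was -1.99 (SE 0.20, adjusted p = 3.23e-06).

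Frontal cortex was also higher in Adra1b, an alpha-1 adrenergic receptor (-2.23 (SE 0.35, adjusted p = 0.000253)), in Wnt10a, a Wnt ligand (-2.06 (SE 0.17, adjusted p = 4.83e-07)), in Rln1, a relaxin (-2.44 (SE 0.21, adjusted p = 7.66e-07, at least 3.13-fold)), in Trim54, a RING-finger protein known from muscle (-2.48 (SE 0.19, adjusted p = 1.81e-07, at least 3.96-fold)), and in the odorant receptor gene Olr59 (-2.09 (SE 0.24, adjusted p = 1.33e-05, at least 2.26-fold)). The hippocampus signals of Rln1, Trim54 and Olr59 were under the intensity minimum on all 4 arrays. The peptide precursors Tac1 and Penk complete the 15 and are described with the striatal list.

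**Figure D3:**
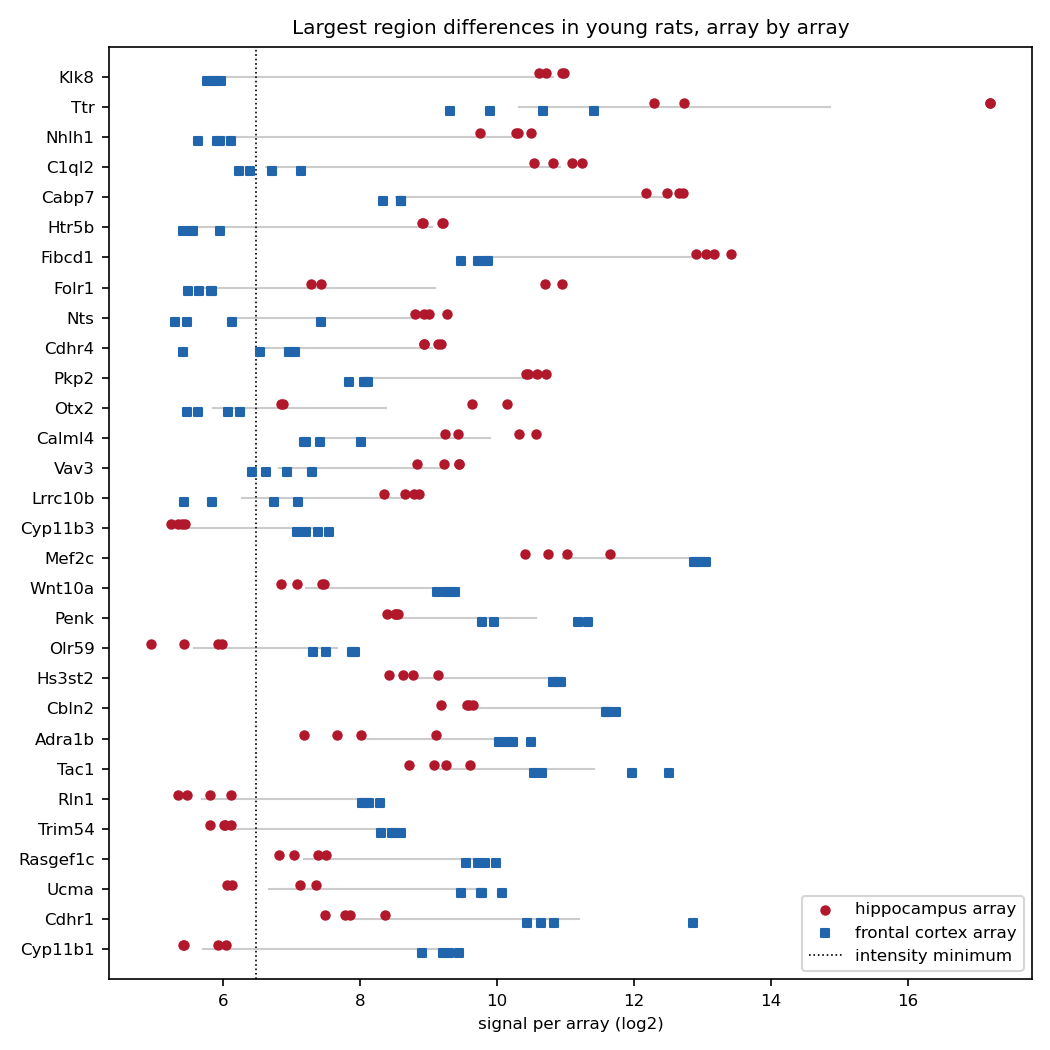
Signal of each young array (log2) for the 15 largest called differences in each direction whose arrays do not overlap. Red circles are hippocampus arrays, blue squares frontal cortex arrays, grey lines join the group means and the dotted line is the intensity minimum. Ttr, Folr1 and Otx2 split into 2 high and 2 lower hippocampus arrays, and Tac1 and Penk into 2 high and 2 lower frontal cortex arrays.

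Promoter windows from RefSeq (GRCr8), from 250 bases before to 50 after the gene's start, were found for 21 of these 30 genes. The windows of 2 genes high in hippocampus and 2 high in frontal cortex are printed as examples of strongly regional genes. Capitals mark matches, on either strand, to the E-box CAGATG, the E-box CAGCTG, the cAMP response element TGACGTCA, the GC box GGGCGG and the TATA box TATAAA. Nhlh1 lies at chr13:87054885-87055184, minus strand, Fibcd1 at chr3:35524093-35524392, minus strand, Hs3st2 at chr1:185387213-185387512, plus strand and Cbln2 at chr18:82215953-82216252, plus strand.
Nhlh1: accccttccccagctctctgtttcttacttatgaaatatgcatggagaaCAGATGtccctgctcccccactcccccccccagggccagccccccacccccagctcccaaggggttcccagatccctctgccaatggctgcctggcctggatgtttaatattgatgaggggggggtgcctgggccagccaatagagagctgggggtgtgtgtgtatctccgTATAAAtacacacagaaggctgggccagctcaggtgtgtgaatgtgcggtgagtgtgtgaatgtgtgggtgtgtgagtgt
Fibcd1: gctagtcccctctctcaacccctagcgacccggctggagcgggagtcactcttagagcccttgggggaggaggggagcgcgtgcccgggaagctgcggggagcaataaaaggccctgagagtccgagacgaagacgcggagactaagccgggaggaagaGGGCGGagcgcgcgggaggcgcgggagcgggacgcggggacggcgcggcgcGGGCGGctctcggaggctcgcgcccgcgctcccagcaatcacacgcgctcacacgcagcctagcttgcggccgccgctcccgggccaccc
Hs3st2: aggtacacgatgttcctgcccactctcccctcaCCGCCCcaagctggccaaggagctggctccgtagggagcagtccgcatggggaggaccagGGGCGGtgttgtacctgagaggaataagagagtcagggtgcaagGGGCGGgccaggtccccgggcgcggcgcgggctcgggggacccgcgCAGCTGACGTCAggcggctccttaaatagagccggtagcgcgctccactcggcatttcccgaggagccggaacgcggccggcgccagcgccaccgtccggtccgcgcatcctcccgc
Cbln2: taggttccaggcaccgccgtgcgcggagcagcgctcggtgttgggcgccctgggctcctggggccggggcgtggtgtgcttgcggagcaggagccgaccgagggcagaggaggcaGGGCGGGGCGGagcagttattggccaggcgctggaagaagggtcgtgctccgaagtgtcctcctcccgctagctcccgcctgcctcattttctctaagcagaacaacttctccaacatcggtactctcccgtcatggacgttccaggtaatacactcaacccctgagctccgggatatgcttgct
Nhlh1 holds 1 E-box and a TATA box and few CG pairs (2), while Fibcd1 has 39 CG pairs and 2 GC boxes. In Hs3st2 a CAGCTG overlaps a cAMP response element by 2 bases.

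Over the 8199 tested genes with a window, 10.9% held CAGATG, 16% CAGCTG, 3.28% the cAMP response element, 63% a GC box and 6.83% a TATA box. Among the 102 windows of genes called higher in hippocampus by over 1 log2 the shares were 17.6%, 17.6%, 0.98%, 54.9% and 13.7%. Among the 108 windows of genes called lower by over 1 log2 they were 16.7%, 25.9%, 2.78%, 52.8% and 14.8%. The median GC content was 61.3% over all windows, 60.2% in the higher set and 64.5% in the lower set. These shares are descriptions of letters in a short window and were not tested.

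Markers of the hippocampal subfields were compared between the regions. The lists were chosen with earlier results of these data known, so their counts are no independent check of the tissue labels. Some members passed the intensity minimum only through 1 region. Dsp, Ntng1, Homer3, Ntf3, Lhx9, Rspo1 and Mdga1 did so through hippocampus. The layer markers Rprm, Tcerg1l and Cplx3 did so through frontal cortex. Some members of the later lists also passed through only 1 region. Of 14 tested dentate granule cell markers, 7 were called higher and 0 lower, with a median of 0.46, against 6.41% called higher over all genes. Besides C1ql2 these included Neurod1, a helix-loop-helix factor of granule cells, which read 9.46, 9.40, 9.19 and 9.39 in hippocampus and 7.55, 7.84, 8.13 and 7.98 in frontal cortex and differed by 1.48 (SE 0.12, adjusted p = 2.22e-07). Dsp, the desmosomal desmoplakin, was higher by 1.20 (SE 0.13, adjusted p = 6.02e-06, at least 1.29-fold) at low signals, 6.79, 6.90, 6.92 and 6.80 in hippocampus and 5.44, 5.68, 5.73 and 5.76 in frontal cortex. Both genes had all hippocampus arrays above all cortex arrays. Prox1, the defining homeobox factor of granule cells, was too dim to test, at 5.74 and 5.04 in hippocampus and cortex on the deposited scale.

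Of 12 CA1 markers, 5 were called higher and 2 lower, with a median of 0.32. After Fibcd1 the smallest p-values were in Nrip3, a nuclear receptor interacting protein (1.41 (SE 0.12, adjusted p = 4.04e-07)), Pou3f1, a POU-domain factor (1.23 (SE 0.11, adjusted p = 8.35e-07)), and Neurod6 (1.07 (SE 0.14, adjusted p = 3.23e-05)). Neurod6, a helix-loop-helix factor shared by pyramidal cells of both regions, read 11.74, 11.18, 11.25 and 11.47 in hippocampus and 10.12, 10.15, 10.48 and 10.59 in frontal cortex. Wfs1, an endoplasmic reticulum protein strong in dorsal CA1, was higher by 0.82 (SE 0.20, adjusted p = 0.0102), which was 0.83 (adjusted p = 0.0605) without the 2 cortex arrays high in striatal markers. The channel gene Kcnh7 (-1.08 (SE 0.15, adjusted p = 6.46e-05)) and Mpped1 (-0.36 (SE 0.11, adjusted p = 0.0451)) were lower in hippocampus, and Mpped1 was called in only 3 of 8 fits that left out 1 array.

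In the CA2 list 3 of 8 were higher and 0 lower. They were Ntf3, the growth factor neurotrophin-3 (1.28 (SE 0.12, adjusted p = 2.31e-06, at least 2.02-fold)), the calcium-binding Necab2 (0.76 (SE 0.16, adjusted p = 0.0033)) and Rgs14, known in mice as a suppressor of CA2 plasticity (0.51 (SE 0.11, adjusted p = 0.00393)). Amigo2, an adhesion protein of CA2, read 7.05, 6.68, 6.81 and 6.81 in hippocampus and 6.72, 6.45, 6.29 and 6.71 in frontal cortex. The groups overlapped and it was not called (0.30 (SE 0.17, adjusted p = 0.318)).

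Of 13 CA3 and mossy cell markers, 6 were higher and 2 lower. Cpne7, a copine that binds membranes with calcium, was bright and even, at 13.09, 12.67, 12.74 and 12.77 in hippocampus and 10.51, 10.33, 10.58 and 10.50 in frontal cortex, a difference of 2.34 (SE 0.13, adjusted p = 7.59e-09). Bok, a BCL2-family protein, read 12.85, 12.57, 12.99 and 12.67 in hippocampus and 11.33, 11.35, 11.29 and 11.30 in frontal cortex and differed by 1.45 (SE 0.15, adjusted p = 3.68e-06). Grik4, a kainate receptor subunit at mossy fibre synapses, was higher by 1.03 (SE 0.16, adjusted p = 0.000254), and Homer3, a scaffold of glutamate receptors, by 1.49 (SE 0.18, adjusted p = 1.52e-05, at least 1.65-fold). For these 4 genes the hippocampus and cortex arrays did not overlap. Col6a1, a collagen chain (-1.22 (SE 0.16, adjusted p = 3.69e-05)), and Rgs12 (-0.42 (SE 0.13, adjusted p = 0.045)) were lower, and Rgs12 was called in 0 of 8 fits that left out 1 array. Drd2, listed for mossy cells and also a striatal marker, was not called.

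Transcription factors of both directions were called. Of 16 tested regulators listed as hippocampus-enriched, 8 were higher and 2 lower, with a median of 0.53. Bhlhe22, a helix-loop-helix repressor, read 12.05, 11.88, 12.05 and 12.15 in hippocampus and 9.73, 10.05, 10.27 and 10.09 in frontal cortex and was 4-fold higher (2.00 (SE 0.20, adjusted p = 2.40e-06)). Lmo1, a LIM-only cofactor, had among the tightest arrays, 10.29, 10.35, 10.36 and 10.42 in hippocampus and 9.27, 9.24, 8.97 and 9.04 in frontal cortex, a difference of 1.22 (SE 0.08, adjusted p = 2.41e-08). Nr3c2, the mineralocorticoid receptor that binds corticosterone in the limbic system, read 10.27, 9.84, 9.77 and 10.18 in hippocampus and 8.37, 8.62, 8.44 and 8.51 in frontal cortex. Hippocampus was higher by 1.53 (SE 0.11, adjusted p = 1.58e-07), with no overlap.

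The LIM-homeobox gene Lhx9 was higher by 1.68 (SE 0.12, adjusted p = 7.10e-08, at least 1.3-fold), with all cortex arrays close to background. Zbtb20, a zinc finger factor needed for CA1 identity in mice, differed by 1.04 (SE 0.20, adjusted p = 0.00181). Meis2, a homeobox factor, was lower in hippocampus by a difference of -1.57 (SE 0.17, adjusted p = 8.05e-06), and the ETS factor Etv5 by -0.44 (SE 0.12, adjusted p = 0.0235), the latter called in 3 of 8 fits that left out 1 array. Of 41 tested forebrain transcription factors, a list that shares members with those above, 14 were higher and 9 lower, with a median of 0.08. Nr2f2, the nuclear receptor COUP-TFII, was higher by 1.07 (SE 0.20, adjusted p = 0.00145), and Pou3f2, a POU factor of upper cortical layers, was lower by a difference of -1.01 (SE 0.12, adjusted p = 1.72e-05).

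Markers of cortical layers were called in both directions. Of 15 layer 2 to 4 markers, 6 were lower in hippocampus and 2 were higher, with a median of -0.36, against 7.43% called lower over all genes. Lamp5, a lysosome-associated membrane protein of upper layers and of some interneurons, read 7.79, 7.62, 7.58 and 7.77 in hippocampus and 9.57, 9.45, 9.49 and 9.63 in frontal cortex and differed by -1.84 (SE 0.20, adjusted p = 6.71e-06). Lmo4, a LIM-only cofactor, was almost constant within each region, 10.53, 10.50, 10.46 and 10.52 in hippocampus and 11.34, 11.33, 11.53 and 11.50 in frontal cortex, and differed by -0.92 (SE 0.13, adjusted p = 7.30e-05). The activity-dependent factor Egr1 was lower by a difference of -1.15 (SE 0.21, adjusted p = 0.0011). Rspo1, a secreted Wnt enhancer (0.83 (SE 0.14, adjusted p = 0.000528, at least 1.37-fold)), and Mdga1, an adhesion regulator (0.49 (SE 0.10, adjusted p = 0.00194, at least 1.01-fold)), were higher in hippocampus, both dim. Rorb, the layer 4 receptor, read 6.82, 7.09, 6.79 and 6.99 in hippocampus and 6.99, 7.47, 7.22 and 7.14 in frontal cortex and was not called (-0.28 (SE 0.14, adjusted p = 0.238)).

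In layer 5, 2 of 14 markers were lower and 1 was higher, with a median of -0.17. Over all genes tested 7.43% were lower and 6.41% higher. Tcerg1l (-1.01 (SE 0.15, adjusted p = 0.000135, at least 1.05-fold)) and Ldb2, a LIM-domain binding factor (-0.60 (SE 0.14, adjusted p = 0.00675)), were lower, and Sulf2, an extracellular sulfatase, was higher (0.35 (SE 0.09, adjusted p = 0.0147)). Fezf2, the factor that specifies subcerebral projection neurons, read 9.57, 9.52, 9.00 and 9.39 in hippocampus and 9.58, 9.84, 9.91 and 9.80 in frontal cortex. Its arrays did not overlap by a narrow margin and it missed the threshold (-0.41 (SE 0.14, adjusted p = 0.072)).

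In layer 6, 4 of 12 were lower and 1 higher, with a median of -0.33. Without the 2 cortex arrays high in striatal markers 2 were lower, and without the 2 hippocampus arrays high in choroid plexus markers 5 were. Rprm, a mediator of cell cycle arrest used as a deep-layer marker, read 5.35, 6.17, 5.74 and 5.81 in hippocampus and 7.37, 7.48, 7.11 and 6.95 in frontal cortex, a difference of -1.46 (SE 0.18, adjusted p = 2.97e-05) and at least 1.67-fold. Crh, the corticotropin-releasing peptide, was lower by a difference of -1.18 (SE 0.18, adjusted p = 0.000213). Cplx3, a complexin of the subplate, was lower by a difference of -0.54 (SE 0.15, adjusted p = 0.0234, at least 1.32-fold) with overlapping arrays. Nr4a2, an orphan nuclear receptor of subplate and claustrum that is also activity-dependent, was higher in hippocampus (1.27 (SE 0.27, adjusted p = 0.00311)). The corepressor Tle4 did not pass (0.03 (SE 0.11, adjusted p = 0.928)), and Tbr1, the deep-layer T-box factor, was too dim to test, at 5.72 and 6.45 in hippocampus and cortex. Cux2 was not analysed here.

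**Figure D4:**
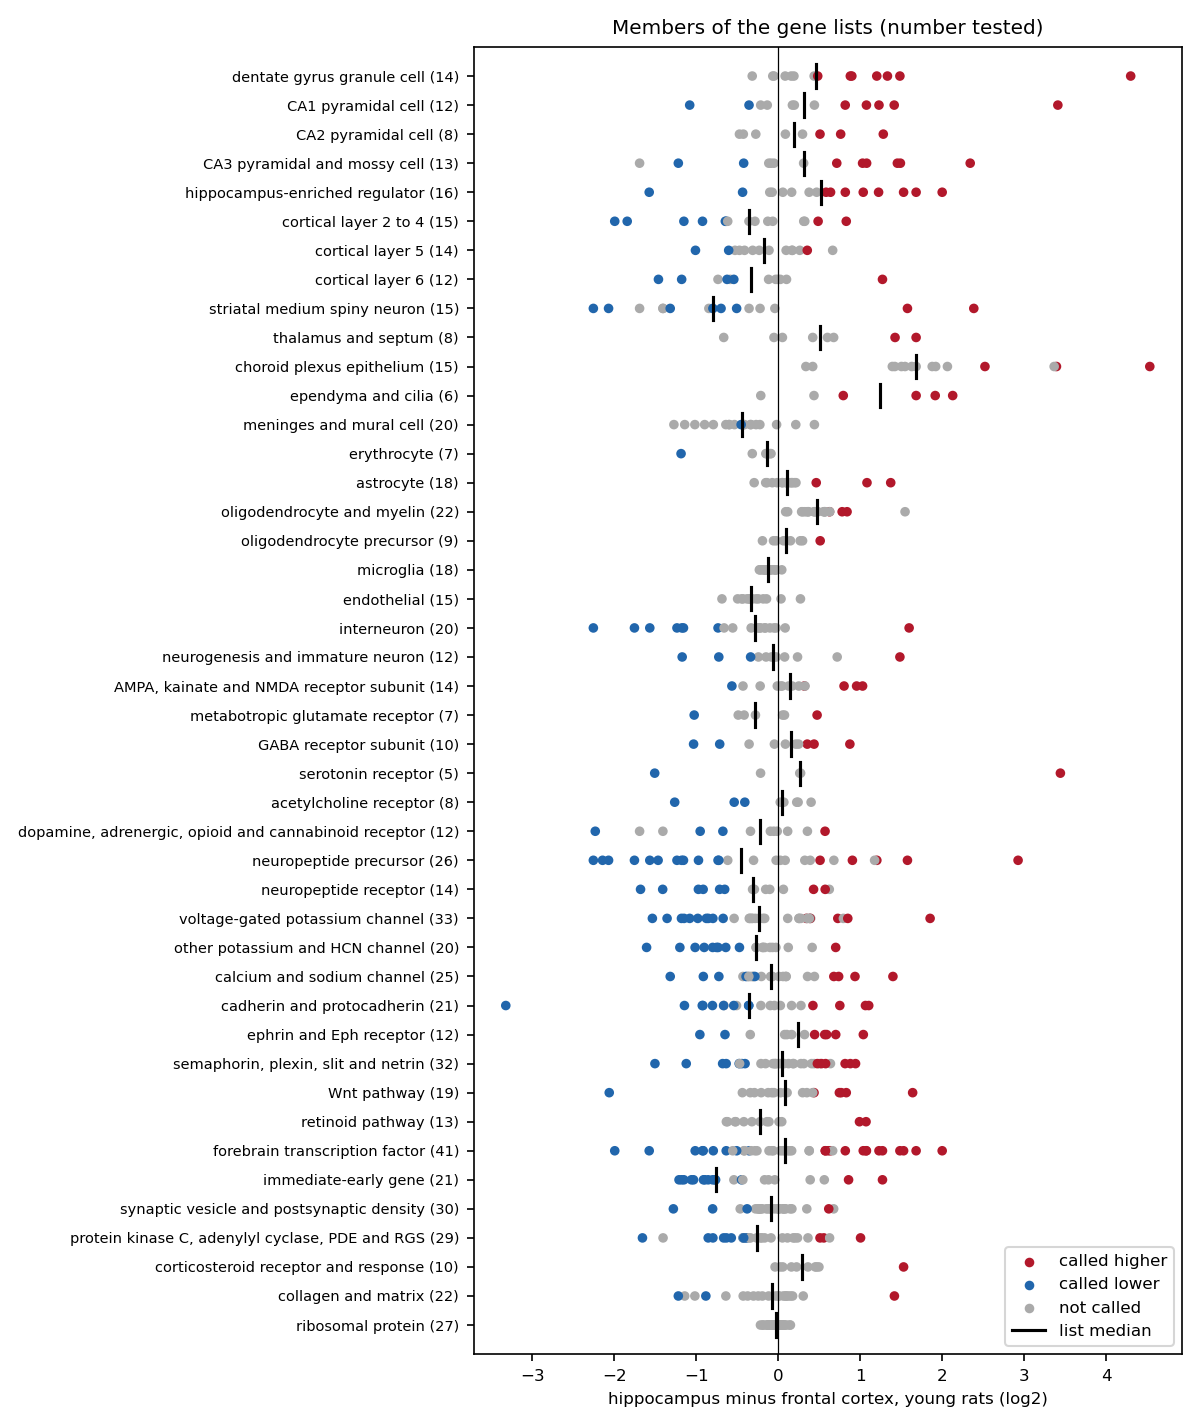
Hippocampus minus frontal cortex difference (log2) of each tested member of 44 gene lists, with the number tested in brackets. Red points were called higher, blue points called lower and grey points not called, and the black tick is the list median. Medians of the dentate and CA lists lie to the right of 0, those of the neuropeptide, potassium channel and immediate-early gene lists to the left, and that of the ribosomal protein genes at -0.03.

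Called interneuron and peptide genes were mostly higher in frontal cortex. Of 20 tested interneuron markers, 7 were lower in hippocampus and 1 was higher, with a median of -0.29. Cort, the somatostatin-like peptide cortistatin, read 8.55, 8.70, 8.21 and 8.78 in hippocampus and 10.18, 10.24, 10.36 and 10.47 in frontal cortex and differed by -1.75 (SE 0.19, adjusted p = 6.05e-06). Vip, vasoactive intestinal peptide, read 9.21, 9.49, 8.66 and 9.65 in hippocampus and 10.58, 10.75, 11.01 and 10.95 in frontal cortex, a difference of -1.57 (SE 0.27, adjusted p = 0.000634). Npy, neuropeptide Y, was lower by a difference of -1.24 (SE 0.19, adjusted p = 0.000193), and Cck, cholecystokinin, among the brightest genes of both regions, by -1.16 (SE 0.18, adjusted p = 0.000233). The exception was Sncg, gamma-synuclein of Cck-type interneurons, which read 10.31, 9.65, 10.56 and 10.26 in hippocampus and 8.41, 8.63, 8.64 and 8.72 in frontal cortex and was higher by 1.60 (SE 0.21, adjusted p = 4.89e-05).

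Over 26 tested neuropeptide precursors, which share members with that list, 12 were lower and 5 higher, with a median of -0.46. The higher ones included Nts, Pdyn (1.58 (SE 0.39, adjusted p = 0.0112)), Nmb and Scg2, the secretogranin precursor (0.90 (SE 0.12, adjusted p = 7.14e-05)). Nmb, neuromedin B, read 9.44, 8.97, 8.77 and 9.25 in hippocampus and 9.11, 7.59, 7.55 and 7.37 in frontal cortex. Frontal cortex array AA reached the hippocampus range and the other 3 did not, and the difference was 1.20 (SE 0.31, adjusted p = 0.0126). Nppa, atrial natriuretic peptide, was lower by a difference of -1.47 (SE 0.21, adjusted p = 0.000132).

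Peptide receptors went mostly the same way, with 6 of 14 lower and 2 higher and a median of -0.30. Cckbr, the brain receptor for cholecystokinin, read 7.66, 8.88, 7.91 and 8.47 in hippocampus and 9.88, 9.78, 10.00 and 9.98 in frontal cortex, a difference of -1.68 (SE 0.24, adjusted p = 0.000102). Tacr3, the neurokinin B receptor, was lower by a difference of -1.41 (SE 0.19, adjusted p = 7.69e-05), Vipr1, a VIP receptor, by -0.72 (SE 0.12, adjusted p = 0.000608) and Nmbr, the neuromedin B receptor, by -0.97 (SE 0.18, adjusted p = 0.00108, at least 1.19-fold). Sstr3 (0.43 (SE 0.10, adjusted p = 0.00923)) and Galr2 (0.57 (SE 0.15, adjusted p = 0.0149, at least 1.4-fold)) were higher in hippocampus, and both lost the call without either pair of arrays that stood apart.

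Ionotropic glutamate receptor genes differed by subunit. Of 14 tested, 4 were higher and 1 lower, with a median of 0.15. Gria1, the AMPA subunit that traffics in long-term potentiation, read 11.47, 10.96, 10.85 and 11.01 in hippocampus and 10.38, 10.26, 10.06 and 9.77 in frontal cortex, a difference of 0.96 (SE 0.17, adjusted p = 0.000682). Gria3, another AMPA subunit, went the other way, 11.79, 11.88, 11.58 and 11.70 in hippocampus and 12.18, 12.13, 12.50 and 12.41 in frontal cortex, a difference of -0.57 (SE 0.10, adjusted p = 0.000682). The NMDA subunit Grin2a was higher by 0.80 (SE 0.16, adjusted p = 0.00247), while Grin2b was not called (0.25 (SE 0.13, adjusted p = 0.229)). Gria2 was higher by 0.32 (SE 0.10, adjusted p = 0.0454) and was called in 2 of 8 fits that left out 1 array. Among 7 metabotropic receptors, Grm8 was lower (-1.03 (SE 0.16, adjusted p = 0.000205)) and Grm6 higher (0.47 (SE 0.13, adjusted p = 0.0232)), the latter called in 3 of 8 fits that left out 1 array.

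GABA-A receptor subunits also split, with 3 of 10 higher and 2 lower. Gabra5, the alpha subunit of extrasynaptic receptors in pyramidal cells of the hippocampus, read 8.54, 8.15, 8.47 and 8.38 in hippocampus and 7.51, 7.43, 7.52 and 7.60 in frontal cortex, a difference of 0.87 (SE 0.10, adjusted p = 1.20e-05). Gabrd, the delta subunit of tonic receptors, read 10.42, 10.36, 10.78 and 10.49 in hippocampus and 11.46, 11.75, 11.40 and 11.58 in frontal cortex, a difference of -1.03 (SE 0.13, adjusted p = 2.16e-05). Neither gene had overlapping arrays. Gabra3 was lower by a difference of -0.71 (SE 0.14, adjusted p = 0.00173, at least 1.49-fold), and Gabra2 (0.44 (SE 0.13, adjusted p = 0.0316)) and Gabrb1 (0.35 (SE 0.10, adjusted p = 0.0291)) were higher. Gabra2 was called in 3 and Gabrb1 in 1 of 8 fits that left out 1 array.

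Of 5 tested serotonin receptor genes, Htr5b was higher and Htr2a lower, and the other 3 were not called. Htr2a, the cortical receptor at which psychedelics act, read 6.02, 6.13, 5.53 and 5.98 in hippocampus and 7.21, 7.54, 7.41 and 7.52 in frontal cortex. All hippocampus arrays were under the intensity minimum and the difference of -1.51 (SE 0.16, adjusted p = 6.60e-06) was at least 1.91-fold. Htr1a, the autoreceptor that is also strong in hippocampal pyramidal cells, was too dim to test, at 6.45 and 5.56 in hippocampus and cortex. Among 8 acetylcholine receptor genes 3 were lower and 0 higher, led by Chrna4, a nicotinic subunit, at 6.57, 7.92, 7.62 and 7.31 in hippocampus and 8.67, 8.64, 8.55 and 8.61 in frontal cortex and a difference of -1.26 (SE 0.20, adjusted p = 0.000236). Among 12 dopamine, adrenergic, opioid, adenosine and cannabinoid receptor genes 3 were lower and 1 higher. Adra1b, Adrb1 (-0.68 (SE 0.10, adjusted p = 9.98e-05, at least 1.48-fold)) and Adra2a (-0.95 (SE 0.24, adjusted p = 0.0119, at least 1.4-fold)) were lower, and Adora1, the inhibitory adenosine receptor, was higher (0.57 (SE 0.12, adjusted p = 0.00239)).

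Most called potassium channel genes were lower in hippocampus. Of 33 voltage-gated subunits and their partners 10 were lower and 5 higher, with a median of -0.24. Kcnv1 and Kcns1 are silent subunits that modify other channels. Kcnv1 read 9.36, 9.66, 9.04 and 9.44 in hippocampus and 10.56, 10.82, 10.81 and 10.73 in frontal cortex, a difference of -1.36 (SE 0.16, adjusted p = 1.73e-05), and Kcns1 differed by -0.98 (SE 0.11, adjusted p = 1.03e-05). Kcnh4 was lower by a difference of -1.15 (SE 0.11, adjusted p = 2.98e-06) and Kcna5 by -1.18 (SE 0.14, adjusted p = 1.25e-05, at least 1.27-fold). Kcng2, another modifying subunit, was higher, at 10.96, 10.35, 10.59 and 10.61 in hippocampus and 8.79, 8.69, 8.77 and 8.86 in frontal cortex and a difference of 1.85 (SE 0.14, adjusted p = 1.59e-07), and so was Kcnip2, the partner of A-type channels (0.85 (SE 0.17, adjusted p = 0.00205)).

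Of 20 other potassium and HCN channel genes 9 were lower and 1 higher, with a median of -0.27. Kcnt1, a sodium-activated channel, read 8.49, 8.96, 8.66 and 8.66 in hippocampus and 10.32, 10.22, 10.31 and 10.34 in frontal cortex. The cortex arrays were close to each other and above all hippocampus arrays, a difference of -1.61 (SE 0.13, adjusted p = 4.77e-07). The leak channels Kcnk2 (-1.20 (SE 0.16, adjusted p = 4.85e-05)) and Kcnk3 (-1.01 (SE 0.14, adjusted p = 7.69e-05)) and the inward rectifier Kcnj4 (-0.80 (SE 0.13, adjusted p = 0.000372)) were lower. The member called higher was Kcnj6, a G-protein-gated inward rectifier (0.70 (SE 0.10, adjusted p = 0.000102)).

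Calcium and sodium channel genes had 4 of 25 higher and 5 lower, where 6.41% and 7.43% of all genes tested were. Scn3b, a sodium channel beta subunit, was bright, 14.58, 14.23, 14.09 and 14.44 in hippocampus and 12.94, 12.87, 12.89 and 13.04 in frontal cortex, and higher by 1.40 (SE 0.11, adjusted p = 1.81e-07). Cacng8, an AMPA receptor auxiliary subunit enriched in hippocampus, was higher by 0.94 (SE 0.20, adjusted p = 0.00415), and its relative Cacng3 was lower by a difference of -0.91 (SE 0.15, adjusted p = 0.00038). The groups did not overlap for any of the 3. Cacna2d3 (0.68 (SE 0.16, adjusted p = 0.0072)) and the T-type channel Cacna1h (0.74 (SE 0.18, adjusted p = 0.0113)) were also higher.

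Adhesion and guidance genes moved in both directions. Of 21 cadherins and protocadherins 9 were lower and 4 higher, with a median of -0.36. Cdh9, an adhesion molecule of dentate and CA3 synapses, read 7.92, 7.62, 7.64 and 7.93 in hippocampus and 6.78, 6.79, 6.67 and 6.62 in frontal cortex and was higher by 1.06 (SE 0.13, adjusted p = 2.58e-05). Pcdh19, whose human gene underlies an epilepsy of girls, was higher by 1.10 (SE 0.15, adjusted p = 5.64e-05). Pcdh10 (-0.93 (SE 0.10, adjusted p = 3.93e-06)), Cdh22 (-0.92 (SE 0.11, adjusted p = 2.56e-05)) and Cdh6 (-1.14 (SE 0.16, adjusted p = 7.69e-05)) were lower. Ephrins and Eph receptors had 5 of 12 higher and 2 lower, with Epha6 (1.04 (SE 0.15, adjusted p = 0.0001)), Epha4 (0.70 (SE 0.13, adjusted p = 0.00122)) and Epha7 (0.57 (SE 0.11, adjusted p = 0.00154, at least 1.27-fold)) higher and Ephb6 (-0.96 (SE 0.11, adjusted p = 1.47e-05)) and Ephb3 (-0.65 (SE 0.15, adjusted p = 0.00537)) lower. The 3 Eph receptors named as higher are of the A class and the 2 lower ones of the B class. Not every member called higher is named here, so no split by class is drawn. Efnb3, an ephrin of the B class, was also called higher, by 0.59. It was not called without the 2 cortex arrays high in striatal markers (0.56, adjusted p = 0.0641).

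Among 32 semaphorins, plexins, slits and netrins 6 were higher and 7 lower. Without the 2 cortex arrays high in striatal markers 5 were higher and 3 lower. Without the 2 hippocampus arrays high in choroid plexus markers 6 were higher and 6 lower. Slit2, a repellent of axons, was higher by 0.81 (SE 0.11, adjusted p = 8.39e-05) and Slit3 by 0.53 (SE 0.10, adjusted p = 0.00161), and Nrp1, a semaphorin receptor, by 0.94 (SE 0.14, adjusted p = 0.000219, at least 1.48-fold). The secreted Sema3a (-1.12 (SE 0.19, adjusted p = 0.000416, at least 1.01-fold)) and Sema3f (-1.50 (SE 0.28, adjusted p = 0.00105)) were lower. Sema3f was uneven in hippocampus, 7.15, 8.87, 8.81 and 8.30, with AA the lowest, while cortex held 9.96, 9.90, 9.63 and 9.65.

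Of 19 Wnt pathway genes 5 were higher and 1, Wnt10a, lower. Wnt4, a ligand, read 10.00, 9.25, 9.84 and 9.71 in hippocampus and 7.82, 7.88, 8.14 and 8.41 in frontal cortex and was higher by 1.64 (SE 0.18, adjusted p = 8.24e-06). The receptor Fzd1 was higher by 0.77 (SE 0.13, adjusted p = 0.000601) and the enhancer Rspo2 by 0.74 (SE 0.13, adjusted p = 0.000909, at least 1.51-fold). Of 13 retinoid pathway genes 2 were higher and 0 lower, with 4 differences above 0 and a median of -0.22. Without hippocampus arrays AB and Y 2 were higher and 3 lower, with a median of -0.32. Aldh1a1, a retinaldehyde dehydrogenase, was higher by 0.99 (SE 0.10, adjusted p = 4.12e-06), with signals of 9.88, 9.68, 9.80 and 9.90 in hippocampus and 8.69, 8.61, 8.99 and 9.00 in frontal cortex that did not overlap.

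Immediate-early genes, which neurons switch on within minutes of activity, were lower in hippocampus in 12 of 21 cases and higher in 2, with a median of -0.76. Egr4 read 9.61, 10.02, 9.36 and 9.95 in hippocampus and 11.21, 10.71, 10.95 and 10.78 in frontal cortex, a difference of -1.18 (SE 0.17, adjusted p = 0.00012). Ier5 was lower by a difference of -0.90 (SE 0.13, adjusted p = 0.000105), Homer1, a postsynaptic scaffold with an activity-induced form, by -0.80 (SE 0.11, adjusted p = 5.44e-05) and Dusp1, which dephosphorylates MAP kinases, by -0.77 (SE 0.11, adjusted p = 7.05e-05, at least 1.49-fold). Each of these 4 had all hippocampus arrays under all cortex arrays. The 2 higher members were the orphan nuclear receptors Nr4a2 and Nr4a3 (0.86 (SE 0.19, adjusted p = 0.00452)).

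Of 29 protein kinase C, adenylyl cyclase, phosphodiesterase and RGS genes 10 were lower and 3 higher, with a median of -0.26. Rgs4, a regulator of G-protein signalling, read 9.80, 11.24, 10.87 and 10.70 in hippocampus and 12.26, 12.30, 12.30 and 12.38 in frontal cortex. Cortex was nearly constant and hippocampus array AA lowest, a difference of -1.66 (SE 0.23, adjusted p = 6.99e-05). Rgs10, an RGS protein of neurons and microglia, went the other way, 12.09, 11.90, 11.95 and 12.09 in hippocampus and 11.03, 11.08, 10.85 and 11.05 in frontal cortex, a difference of 1.00 (SE 0.08, adjusted p = 4.48e-07). Without the 2 cortex arrays high in striatal markers 4 members were lower, with a median of -0.24, and without the 2 hippocampus arrays high in choroid plexus markers 2 were, with a median of -0.29. Of 30 synaptic vesicle and postsynaptic density genes 4 were called, where 13.8% of all genes tested were. Stx1a, the syntaxin of vesicle fusion, was lower by a difference of -1.28 (SE 0.14, adjusted p = 9.94e-06), at 13.44, 13.54, 13.04 and 13.26 in hippocampus and 14.40, 14.50, 14.85 and 14.64 in frontal cortex, and Camk2b, a subunit of the calcium-calmodulin kinase of synaptic plasticity, was higher by 0.62 (SE 0.13, adjusted p = 0.00267). Of 12 neurogenesis and immature neuron genes 1 was higher, Neurod1 (1.48 (SE 0.12, adjusted p = 2.22e-07)), and 3 were lower, with a median of -0.07. Among the lower, Stmn1, a microtubule destabiliser, and Dcx, doublecortin, were lower by differences of -1.17 (SE 0.10, adjusted p = 9.14e-07) and -0.73 (SE 0.14, adjusted p = 0.00138).

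The striatal list had 6 of 15 members lower in hippocampus and 2 higher, with a median of -0.80. Tac1, the precursor of substance P, read 9.09, 9.60, 8.72 and 9.25 in hippocampus and 12.51, 11.98, 10.54 and 10.66 in frontal cortex, and Penk, the enkephalin precursor, 8.50, 8.55, 8.39 and 8.52 in hippocampus and 11.19, 11.33, 9.78 and 9.96 in frontal cortex. Cortex arrays AA and AB were the highest for both. No array overlapped with hippocampus, as their choice among the largest differences required. The difference of Tac1 was -2.26 (SE 0.47, adjusted p = 0.00286) and became -1.43 (adjusted p = 0.0734) without those arrays, and that of Penk was -2.07 (SE 0.34, adjusted p = 0.000369) and became -1.38 (adjusted p = 0.00813). Scn4b (-1.32 (SE 0.24, adjusted p = 0.000836)) and Rasd2 (-0.70 (SE 0.18, adjusted p = 0.0139)) were lower as well. Without cortex arrays AA and AB the list had 2 members lower and 2 higher and a median of -0.35. The 2 higher members were Lrrc10b and Pdyn, the dynorphin precursor that granule cells also make. Pdyn read 10.53, 10.26, 10.48 and 10.49 in hippocampus and 9.85, 9.49, 7.95 and 8.17 in frontal cortex, so its lowest hippocampus array was above the 2 high cortex arrays. The part of striatal tissue in the differences of these genes was not tested. Drd1, a defining marker, was under the intensity minimum, at 5.38 and 5.89 in hippocampus and cortex.

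The choroid plexus list had 3 of 15 members called higher and 0 lower, all 15 differences above 0, and a median of 1.68. Ttr, the thyroxine carrier transthyretin, read 12.73, 17.20, 17.20 and 12.29 in hippocampus and 9.90, 9.31, 10.68 and 11.42 in frontal cortex. Hippocampus arrays AB and Y were over 4 log2 above AA and Z, which were still above every cortex array. The difference was 4.53 (SE 1.10, adjusted p = 0.00917), and 2.19 (adjusted p = 0.191) without AB and Y. Folr1, a folate receptor, split likewise, 7.43, 10.95, 10.70 and 7.29 in hippocampus, with a difference of 3.39 (SE 0.90, adjusted p = 0.0167, at least 6.09-fold) and 1.66 (adjusted p = 0.301) without those arrays. Otx2, a homeobox factor, differed by 2.52 (SE 0.76, adjusted p = 0.0357, at least 3.72-fold) and by 1.01 (adjusted p = 0.486) without them, and was called in 2 of 8 fits that left out 1 array. Without arrays AB and Y the list had 0 called members and a median of 0.22. Of 6 tested ependymal and cilia genes 4 were higher, among them Foxj1, the regulator of motile cilia (1.91 (SE 0.38, adjusted p = 0.00188), and 1.34 (adjusted p = 0.0548) without AB and Y), and Tmem212 (2.13 (SE 0.44, adjusted p = 0.00259, at least 2.85-fold)). Without AB and Y 1 of the 6 was called and the median fell from 1.24 to 0.79. Folr1, Otx2 and the called ependymal genes Tmem212, Cfap126 and Tekt1 passed the intensity minimum only through hippocampus. The filter thus partly set the counts of both lists. The part of ventricular tissue in these differences was not tested.

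Of 18 astrocyte genes 3 were higher and 0 lower, where 6.41% and 7.43% of all genes tested were, and the list median was 0.11. Gfap, the intermediate filament of astrocytes, read 9.40, 9.27, 9.68 and 9.61 in hippocampus and 8.50, 8.50, 8.28 and 8.35 in frontal cortex, a difference of 1.08 (SE 0.18, adjusted p = 0.00058), and Agt, angiotensinogen, read 13.73, 13.19, 14.04 and 13.67 in hippocampus and 12.43, 12.21, 12.31 and 12.19 in frontal cortex, a difference of 1.37 (SE 0.16, adjusted p = 1.25e-05). Neither overlapped. All 22 myelin differences were above 0 with a median of 0.47, and 3 were called higher, Car2, Mag and Tf. Without the 2 cortex arrays high in striatal markers 8 were called, with a median of 0.80, and without the 2 hippocampus arrays high in choroid plexus markers 0 were, with a median of 0.54. Mag and Tf were each called in 3 of 8 fits that left out 1 array, and Mag had kept spots of both signs. Mbp, myelin basic protein, was bright and close to equal, 16.52, 16.48, 16.37 and 16.14 in hippocampus and 16.40, 16.20, 16.30 and 16.15 in frontal cortex, with a difference of 0.11 (SE 0.12, adjusted p = 0.617). Of 18 microglia and 15 endothelial genes 0 were called, with medians of -0.12 and -0.33. Of 20 meningeal and mural genes 1 was lower and 0 higher, with a median of -0.44. Without the 2 hippocampus arrays high in choroid plexus markers 3 endothelial and 6 meningeal and mural genes were lower. Without the 2 cortex arrays high in striatal markers 1 and 3 were. Of 27 ribosomal protein genes 0 were called and the differences ran from -0.22 to 0.15.

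Among 10 corticosteroid receptor and response genes Nr3c2 was the only one called, and the list median was 0.29. In the collagen and matrix list 1 of 22 was higher, Hapln4, a link protein of perineuronal nets (1.42 (SE 0.15, adjusted p = 5.93e-06)), and 2 were lower, Col6a1 and Spp1. The counts of both lists are near the shares of all genes tested, 6.41% higher and 7.43% lower. Spp1, osteopontin, read 5.49, 5.64, 5.80 and 5.87 in hippocampus and 7.73, 6.33, 6.24 and 6.04 in frontal cortex, with cortex array AA over 1 log2 above the other cortex arrays, and the difference was -0.88 (SE 0.26, adjusted p = 0.0294, at least 1.07-fold). Without cortex arrays AA and AB it was -0.44 (adjusted p = 0.0712).

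The old arrays give the same measure in samples whose signals do not enter the young difference. The 2 comparisons still share 1 estimate of spread, the choice of spots and the intensity filter. In old rats 1879 genes (18.7%) were called between the regions, 970 higher (9.65%) and 909 lower (9.04%) in hippocampus. Of the 1392 genes called in young rats, 1386 had the same sign in old rats and 1137 were also called, which is 81.7% of the young calls and 60.5% of the old ones, and 0 were called with opposite signs. In 997 of them the old arrays did not overlap in the same direction, where over all genes the old arrays did not overlap for 8.95% with hippocampus higher and 8.32% with hippocampus lower. Across the genes called in young rats the 2 sets of differences correlated at 0.97, and across all genes at 0.86, as a description, since genes are not independent replicates. Among 293 genes called in young rats with differences over 1 log2, 284 were called in old rats with the same sign, and the median ratio of the old to the young size was 0.959. Klk8 differed by 4.60 in old rats, C1ql2 by 4.24, Fibcd1 by 3.23, Cyp11b1 by -3.75 and Cbln2 by -2.34. Marker lists of neighbouring tissue differed in old rats too. The striatal list had 10 members lower and 2 higher, with a median of -1.09. The choroid plexus list had 4 higher and 0 lower, with a median of 1.86. The part of such tissue in the differences shared by both ages was not tested.

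The difference between the ages in these region differences was tested gene by gene with limma, and 0 genes passed after adjustment, with 266 at an unadjusted p under 0.05 and 0.999 as the smallest adjusted p. Nmbr differed by -0.97 in young and 0.13 in old rats, Spp1 by -0.88 and 0.72, Sla, an adaptor of immune receptors, by -1.01 and 0.18, and Frzb, a secreted Wnt inhibitor, by 0.44 and 1.24. These 4 are given as values that failed the correction, and Nmbr, Spp1 and Sla were under the intensity minimum in young hippocampus.

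**Figure D5:**
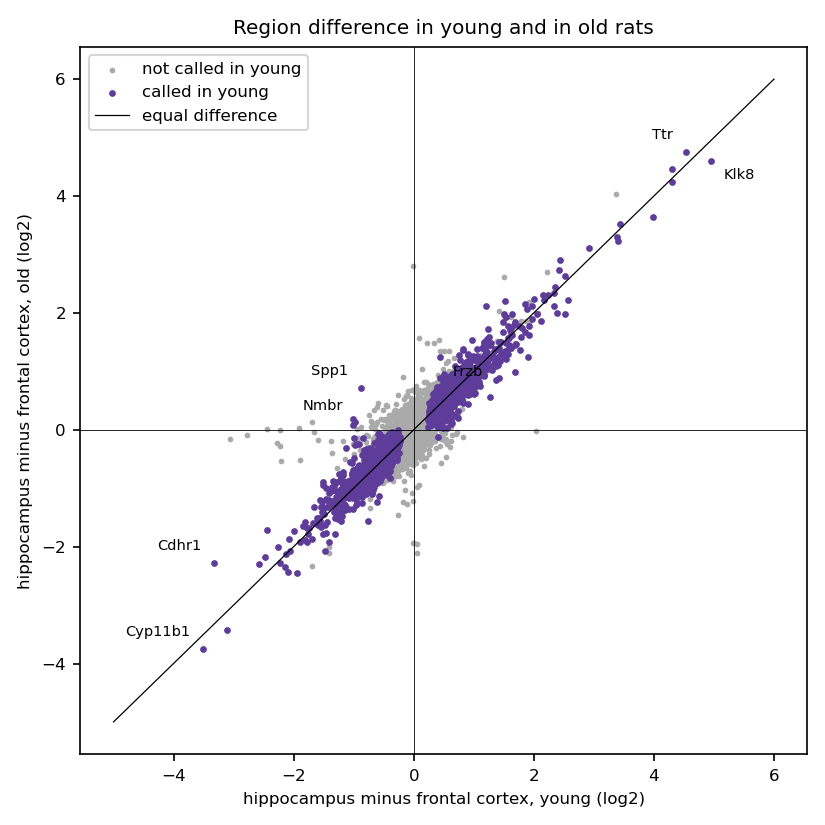
Hippocampus minus frontal cortex difference (log2) in young rats (horizontal axis) against that in old rats (vertical axis) for the 10056 genes tested. Purple points are the 1392 genes called in young rats, grey points the others, and the diagonal marks equal differences. Nearly all purple points lie at lower left or upper right, 1386 with the same sign.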

How the data were processed

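The values are the log2 signals that the authors deposited for each array, matched to the labels through the sample identifiers. Agilent Feature Extraction is named in the submitters' processing notes. How background was corrected and arrays were normalized is not given in the sources read. The quartiles of all columns coincide (median 6.77, upper quartile 9.17), and values run from 4.94 to 17.8. No flags of detection come with them, so the intensity minimum stands in for background. A deposited table of scanner intensities has 16 columns that match no sample by name, and it was used only for the names of control spots. The design had allowed for it.

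Of 62976 spots, 45904 had a listed gene, 39795 with a symbol updated by accession from RefSeq (GRCr8) and 6109 with the array's own symbol. The other 17072 were left out. Each array was shifted to a common upper quartile over gene spots (9.42 to 9.44 before the shift). A gene was represented by its brightest spot over the 16 arrays and kept if at least 1 group mean was above 6.49 log2, the 0.4 quantile of spot means. More than 1 kept spot was available for 8454 of the 10056 genes. Spots were not merged by probe, so the kept spots of a gene may repeat 1 probe. The 4 group means were fitted to the 16 arrays with limma 3.58.1 (lmFit, eBayes) in R 4.3.3, with 12 residual and 4.07 prior degrees of freedom. Its two-sided p-values were adjusted after Benjamini-Hochberg for all genes kept. The procedure was tested on simulated data. The alternatives covered array scaling, the filter on dim spots, the summary of spots, the variance model, a minimum difference, a replicate block and left-out arrays.

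Genes named are the 15 largest called differences in each direction with arrays that do not overlap and kept spots of 1 sign, up to 4 called members of each list per direction, a set of marker genes, and the smallest p-values of the difference between ages. The genes, the 44 lists (905 symbols, 650 tested) and the comparisons were chosen with earlier results of these data known, so no list was tested as a set.

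Whether a code pairs the regions was checked by correlating the deviations of same-code arrays from their group means across genes. The correlations were 0.12 for AA, -0.05 for AB, 0.03 for Y and -0.17 for Z. Those between different codes ran from -0.25 (hippocampus AA with cortex Z) to 0.31 (hippocampus Y with cortex Z). The same-code values lay within that range. Differences between arrays in markers of neighbouring tissue also enter these deviations, so the check cannot decide whether a code pairs the regions. The codes were not used to pair arrays.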

Additional observations from a re-analysis of the deposited data

Results flagged for a closer look

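Each named gene and each list mean was checked in both young groups for an array whose gap to the nearest other array made up most of the group's range. Of 480 such checks 19 met Dixon's 95% criterion, and chance flags about 1 in 20 groups. Each value is given with the mean of the other 3 arrays of its group. In frontal cortex, array AA was far above the others for Cdhr1 (12.86 log2, while the other 3 averaged 10.64) and Nmb (9.111 against 7.505). Array AB was high for Homer3 (5.882 against 5.661) and low for Gria2 (10.73 against 10.76). Array Y was low for Cabp7 (8.335 against 8.594) and Kcnj4 (9.01 against 9.347). Array Z was high for Tubb3 (12.78 against 12.7), Nppa (8.914 against 8.636) and Homer1 (11.32 against 11.1) and low for Slit2 (10.31 against 10.49).

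In hippocampus, array AA was high for Necab2 (10.28 against 9.816) and Gria2 (11.37 against 10.97). Array Y was low for Rgs12 (10.11 against 10.51) and Npy (11.1 against 11.43), and array AB for Pcdh10 (9.887 against 10.07).

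Among list means, frontal cortex array Z was low for the hippocampus-enriched regulators (-0.361 against -0.219) and for microglia (-0.199 against -0.0586). Hippocampus array AA was low for the dopamine, adrenergic, opioid and cannabinoid receptors (-0.346 against -0.234), and frontal cortex array AA for the calcium and sodium channels (-0.0311 against 0.0291).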

How the results depend on the processing

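Array weights gave 2306 called genes, 1131 higher and 1175 lower, and the 1392 genes of the comparison had the same sign in that fit. Asking for a difference above 1 log2 (limma's treat) left 45, 26 higher and 19 lower. Over the fits that left out 1 array, or 1 letter code in both regions, 957 to 1281 genes were called, 428 to 598 of them higher and 515 to 683 lower, where fewer arrays enter the fit. The lowest count of higher genes, 428, came without code Z. The 8 young arrays alone gave 1951, and the other scalings of the arrays (quantile, median or none), the other filters (none, stricter, young groups only), the mean of all spots and a robust variance trend gave between 1073 and 1494. With the letter code as a replicate block 1542 genes were called on the young arrays and 1358 on all 16, and since the codes were not shown to pair arrays this is no test of pairing. The mean of all spots gave 2 of the 1392 genes the opposite sign. Of the 186 named genes that were called, 158 were called in each of the 8 fits without 1 array and 186 kept their sign. Of all 1392 called genes, from 1097 to 1208 stayed called in any 1 of those 8 fits. Background correction on the scanner intensities and slide as a block were not run. Signal over background limits the 90 higher and 112 lower genes whose dimmer region lay under the intensity minimum.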

Other observations

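A set of genes, singled out after seeing the data, had 1 young array far above the other 7. With a gap of over 4 log2 there were 13 such genes, 9 of them on frontal cortex array AB, 2 on frontal cortex array Z, 1 on frontal cortex array AA and 1 on hippocampus array AA. Gramd1c read 17.77 on frontal cortex array AB, where its next highest young array read 5.54, and Vom2r80, a vomeronasal receptor gene, read 16.31 there against 5.21. Klrb1a, a lectin receptor of natural killer cells, read 14.83 on the same array, while its other spots on that array reached 5.32 at most. Cenpc, a centromere protein, read 14.16 on hippocampus array AA, with another spot at 6.39. Of the 12 such genes with more than 1 spot, 12 had every other spot over 4 log2 lower on the same array. None of the 13 was called by limma at an adjusted p under 0.05. Klrg1 and Slc19a3 were the 2 on frontal cortex array Z, at 11.36 and 14.31.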
